A study of Mus musculus with 22 samples.

Results

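Gene expression in the dentate gyrus of Srf knockout (KO) mice was compared with that of control (CTR) mice at rest, 6 h after an intraperitoneal injection of saline. The comparison takes every probe of the deposited log2 table on the 6 arrays of KO mice and the 6 arrays of CTR mice given saline, 12 of the 22 arrays of the series. The other 10 arrays, 5 of each genotype, came from mice given kainic acid (KA), which acts on kainate receptors and triggers seizures. They enter here only where a saline value is set beside its value after KA. Mice given KA, also intraperitoneally, were killed 6 h after severe seizures had been induced. For saline mice the time counts from the injection, so the treatments are timed from different events.

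Each array carried RNA from the dissected dentate gyrus of 1 male mouse and was an Illumina MouseWG-6 expression BeadChip. CTR mice were Srf f/f, with loxP sites around part of both copies of Srf. KO mice were their littermates of genotype Srf f/f;CaMKCreERT2, with 1 copy of a Cre recombinase that is made under the CaMKIIα promoter in excitatory forebrain neurons and enters the nucleus only when tamoxifen is bound. Mice of both genotypes received tamoxifen as adults, at 2 to 6 months, as 1 mg injected 2 times daily for 5 to 10 days, and were used at least 4 weeks later. All of them had been handled and injected with saline on 3 days before the experiment. Interneurons, glia and vessel cells of KO mice do not make this Cre and keep Srf, and the dissected tissue holds these cells too. In such bulk tissue, fewer cells of a type and less RNA per cell cannot be told apart.

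Serum response factor (SRF), the product of Srf, is a MADS-box transcription factor that binds the CArG box. It switches on immediate-early genes with ternary complex factors such as Elk1 and Elk4, downstream of MAP kinase signalling, and it drives genes of the actin cytoskeleton with the myocardin-related cofactors Mrtfa and Mrtfb, which respond to the pool of free actin. In neurons of the hippocampus SRF is best known for the response of such genes to synaptic activity. The saline arrays show what its loss from adult excitatory neurons leaves different when no seizure has been evoked.

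CTR mouse 6 and KO mice 5 and 6 stood apart from the other saline arrays. Over the 20813 probes above background (defined below) in at least 1 group, their mean correlation with their own group's arrays was 0.981, 0.982 and 0.984. The other 9 saline arrays had 0.988 to 0.991. On some probes these 3 arrays deviated together. Klhdc3, a neighbour of Srf, read 10.20 in CTR mouse 6 and 10.25 and 10.62 in KO mice 5 and 6. It read 11.55 to 11.75 in the other 9. Unlike the other CTR mice, CTR mouse 6 correlated more with the KO arrays (0.985) than with its own group (0.981). The 3 arrays fall unevenly on the genotypes, and what they share was not tested. Leaving out CTR mouse 6 and KO mice 5 and 6 was a choice made after seeing the data. Without these 3 arrays the difference was −1.03 for Srf (adjusted p = 0.00083 in limma), 1.06 for Arsi (0.82), 0.81 for Sstr1 (1) and 0.69 for Adcyap1 (0.82), with the adjusted p in parentheses, so that only Srf was called.

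Srf was the gene that set the genotypes apart. The log2 signal of its bright probe (ILMN_2988299, chromosome 17) was 12.38, 12.62, 12.41, 12.47, 12.52 and 12.28 in CTR mice 1 to 6. In KO mice 1 to 6 it was 11.46, 11.58, 11.56, 11.20, 11.44 and 11.20. Every KO mouse lay below every CTR mouse. The mean fell by 1.04 on the log2 scale (95% confidence interval from −1.24 to −0.84), from 12.45 ± 0.12 (SD, n = 6) to 11.41 ± 0.17 (SD, n = 6), which is a 2.06-fold lower signal with an adjusted p of 1.3e-05 in limma. Some signal of Srf thus remained in every KO mouse, as 1 value for neurons that carry the Cre and for cells that do not. The position of this probe relative to the part of Srf that Cre removes is not given in the sources used here. A second probe (ILMN_1242533) lay under the background level in both groups.

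The promoter of Srf itself carries CArG boxes, and it is shown here because Srf is both the deleted gene and a known target of its own product. The sequences below are RefSeq promoters of build GRCm38.p6, written 5′ to 3′ on the strand of the gene, with each CArG box in capitals. Positions count back from a RefSeq transcript start, with −1 as the base before it. In Srf (chr17:46556163-46556282, minus strand) the boxes begin at −82 and −62. Beside it stand 4 examples of listed SRF targets with a box in the window searched and a signal above background, cytoskeletal genes and 1 immediate-early gene: Cnn2 (calponin 2, chr10:79988510-79988580, plus strand, box at −56), Vcl (vinculin, chr14:20929148-20929208, plus strand, box at −227), Myl9 (a myosin light chain, chr2:156775274-156775339, plus strand, box at −161) and Egr2 (a zinc finger factor, chr10:67537456-67537526, plus strand, box at −72).
Srf: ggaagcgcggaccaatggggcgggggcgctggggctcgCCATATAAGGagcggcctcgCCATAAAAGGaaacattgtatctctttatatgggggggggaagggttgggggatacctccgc
Cnn2: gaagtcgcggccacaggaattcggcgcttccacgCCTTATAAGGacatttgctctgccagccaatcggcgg
Vcl: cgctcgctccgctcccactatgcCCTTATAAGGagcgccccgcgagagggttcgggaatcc
Myl9: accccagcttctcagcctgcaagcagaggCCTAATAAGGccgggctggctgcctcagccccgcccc
Egr2: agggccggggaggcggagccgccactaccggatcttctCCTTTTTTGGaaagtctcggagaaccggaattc

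With these boxes in their promoters, the other 4 genes had nearly the same signal in both genotypes. The log2 mean was 8.60 in CTR and 8.73 in KO mice for Cnn2, 11.73 and 11.75 for Vcl, 10.90 and 11.05 for Myl9, and 8.28 and 8.28 for Egr2. None of these differences passed the test (each adjusted p = 1 in limma). A search of all RefSeq promoter windows of 250 bases before to 50 bases after a start found the CArG box, a motif that reads the same way on both strands, in 535 of 32851 windows (1.629%). Of the genes with such a window, 259 had a probe and 146 were above background in both saline groups. Over the 259, the median difference between KO and CTR mice was −0.002 on the log2 scale, against 0.002 over all 20295 genes, and Srf was the only one called. An unadjusted p under 0.05 was reached by 1 higher (Fhl1, a LIM-domain protein of muscle) and 4 lower genes, Srf among them, against 1.09% and 1.04% of all genes. With the 12 saline arrays alone it was reached by 4 higher and 10 lower genes, against 2.47% and 2.05%. Windows were matched to 77.77% of all genes with a probe, so the check does not cover the rest. A box is a match of letters and not a measured binding site.

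Across the genome the saline comparison called 1 of 46237 probes, 0.00216% of those tested, at an adjusted p under 0.05 and more than 1.5-fold, and that probe was Srf. Each probe was tested with limma, with group means over all 22 arrays and Benjamini-Hochberg adjustment over all probes. Tukey's test after a 2-way fit, not adjusted over probes, gave 5 (0.0108%). The study's results name Tukey's test for this comparison, while its methods name a 2-way analysis of variance with a Benjamini-Hochberg false discovery rate. The limma test between the genotypes after KA called 2209 probes (4.78%). Before adjustment 991 probes (2.14%) had a p under 0.05 after saline, 466 higher (1.01%) and 525 lower (1.14%) in KO mice, and 602 of these were not above background in either group. On the level of genes, each represented by its brightest probe on the saline arrays, 433 of 20295 (2.13%) had an unadjusted p under 0.05, and the 6 KO values did not overlap with the 6 CTR values in 45 genes (0.222%). The count of called probes was 3 when the 12 saline arrays were fitted alone, where Arsi and Sstr1 joined Srf, and 1823 probes (3.94%) then had an unadjusted p under 0.05.

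**Figure D1:**
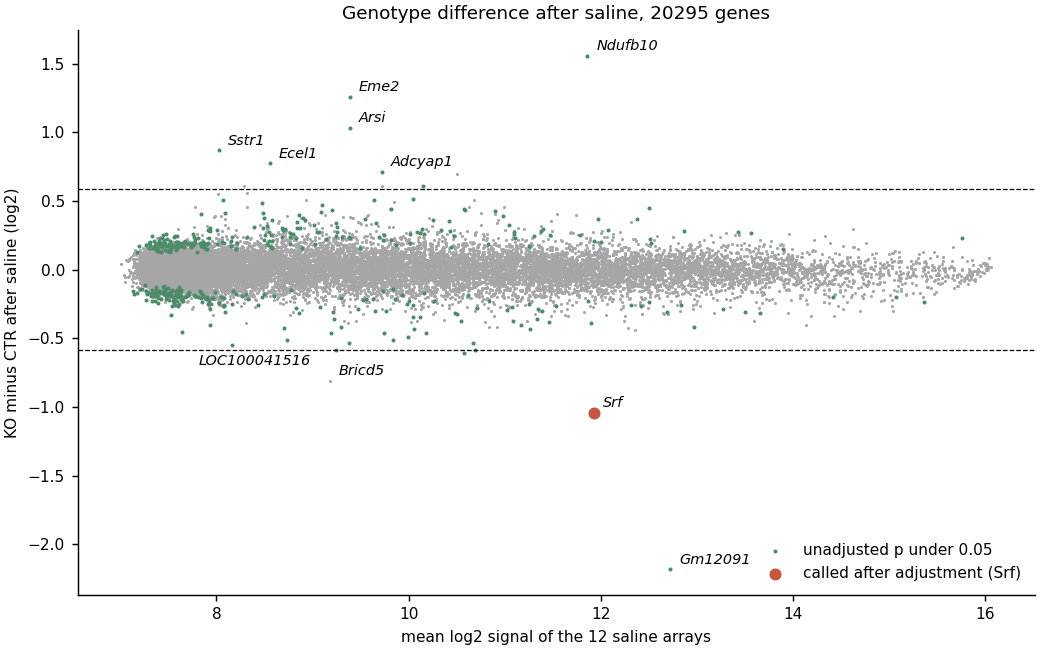
Genotype difference (KO minus CTR, log2) against the mean log2 signal of the 12 saline arrays for 20295 genes, 1 point each, with dashed lines at 1.5-fold, green points for an unadjusted p under 0.05 in limma and the red point for the gene called after adjustment. Most genes lie close to 0 over the whole range of signal, Srf is the only called gene at −1.04, and the most distant points, Ndufb10 at 1.56 and Gm12091 at −2.18, are not called.

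The arrays were precise enough to bound most differences. Background was set on each array as the 95th percentile of the signal of 1529 probes for olfactory and vomeronasal receptors, genes that the dentate gyrus is not known to use, which came to between 7.86 and 7.95 on the saline arrays. A gene was taken as above background in a group when it passed this bound on all arrays of the group, as 10677 genes did in both saline groups. Their median absolute difference between the genotypes was 0.06 on the log2 scale, and 93.53% lay within 0.2 of 0. The 95% confidence interval reached a median of 0.26, or 1.195-fold, to either side. It lay wholly within 1.5-fold of no change for 9845 genes (92.21%) and within 2-fold for 10603 (99.31%). The arrays thus leave room for differences smaller than 1.5-fold in nearly every gene and for larger ones in a minority.

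Only 14 genes above background in at least 1 saline group differed by more than 1.5-fold (0.124% of 11261), 9 higher and 5 lower in KO mice. The 8 with the largest difference in each direction on the list of named genes were Ndufb10, Eme2, Arsi, Sstr1, Ecel1, Adcyap1, Vat1l and Trhr on the higher side, and Gm12091, Srf, Bricd5, Ccl21c, LOC100041516, Ccl21a, Wdfy1 and Dsp on the lower side. Of these 16, the values of the 2 genotypes did not overlap in 5, namely Srf, Arsi, Sstr1, LOC100041516 and Ccl21a. Over the 11261 genes they did not overlap in 36 (0.32%). The 2 counts cannot be compared, because the 16 were picked for large differences on these same arrays.

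Arsi, which encodes arylsulfatase I, an enzyme that removes sulfate groups, had the largest difference among the higher genes whose groups did not overlap. Its bright probe (ILMN_2472093, chromosome 18) read 8.93, 8.86, 9.01, 8.99, 9.01 and 8.44 in CTR mice 1 to 6 and 10.15, 9.94, 10.15, 9.83, 9.58 and 9.78 in KO mice 1 to 6. Every KO mouse lay above every CTR mouse. The difference was 1.03 (standard error 0.18, 95% interval from 0.66 to 1.41) with an adjusted p of 0.15 in limma. This did not pass the threshold over 46237 probes, but it did with an adjusted p of 0.0016 when the 12 saline arrays were fitted alone. After KA, on arrays of other mice, the difference was 1.12 and was called (adjusted p = 0.00046 in limma). Its other probes, of which ILMN_1244943 lay under background in both groups and ILMN_2852844 passed it only in KO mice, differed by 0.18 and 0.17 after saline.

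Sstr1, a somatostatin receptor that lowers excitability through inhibitory G proteins, was under background in all CTR mice and above it in all KO mice. The probe (ILMN_2728465, chromosome 12) read 7.63, 7.63, 7.47, 7.38, 7.75 and 7.68 in CTR mice 1 to 6, and 8.19, 8.40, 8.39, 8.53, 8.60 and 8.64 in KO mice 1 to 6. The groups did not overlap. The KO mean of 8.46 was at least 1.47-fold higher, counted against the background bound of each CTR array, with a measured difference of 0.87 (standard error 0.14) and an adjusted p of 0.053 in limma, just outside the threshold. With the 12 saline arrays alone the adjusted p was 0.00056. After KA the probe was not above background on all arrays of either genotype, from 7.27 to 8.29 in CTR and from 7.41 to 8.17 in KO mice, so that differences there are between signals near background. The measured one was 0.16 (adjusted p = 0.65), and the test of whether it differed from that after saline missed the threshold as well (−0.71, adjusted p = 0.051 in limma).

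Adcyap1 encodes PACAP, a neuropeptide of the dentate gyrus that raises cyclic AMP. Its measured genotype difference was positive after saline, where it was not called, and negative after KA, where it was called. After saline its probe (ILMN_1227605, chromosome 17) read 9.19, 9.32, 9.30, 9.43, 9.0 and 9.94 in CTR mice 1 to 6, and 10.07, 9.76, 10.04, 9.91, 10.03 and 10.67 in KO mice 1 to 6. The groups overlapped only through CTR mouse 6, which lay above KO mice 2 and 4. The difference after saline was 0.71 (standard error 0.15, 95% interval from 0.40 to 1.03, adjusted p = 0.65 in limma). After KA it was −1.42 (adjusted p = 3.7e-06), and the difference between the 2 treatments was −2.14 with an adjusted p of 5.9e-06 in limma.

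**Figure D2:**
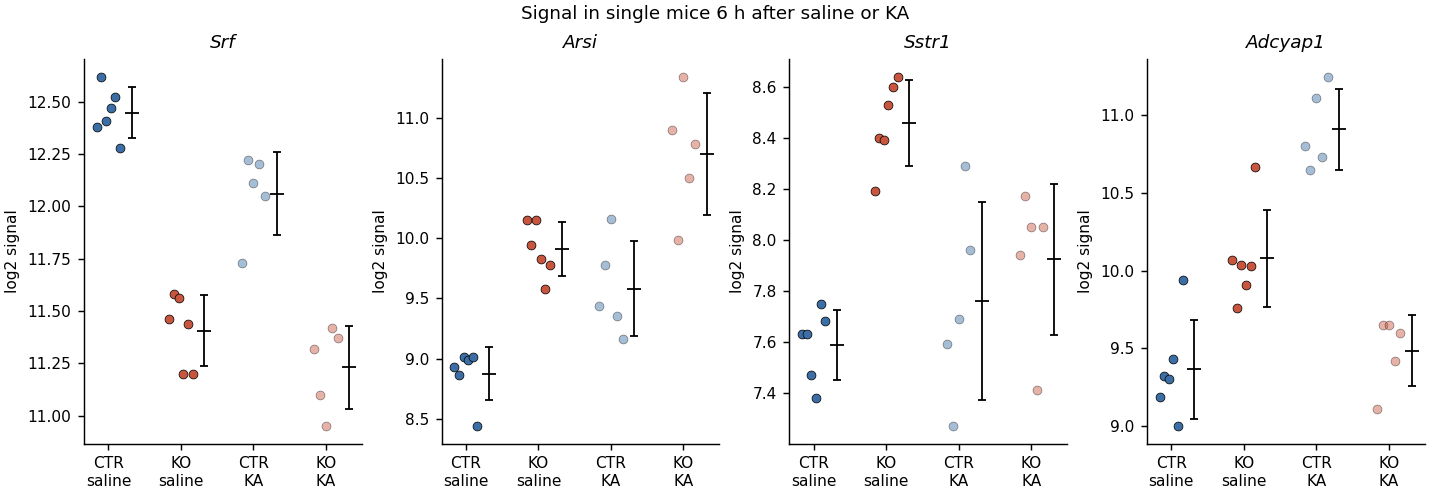
Log2 signal of Srf, Arsi, Sstr1 and Adcyap1 in single mice, 1 point each, for CTR and KO mice after saline (6 each) and after KA (5 each, paler), with the mean and SD of each group beside the points. After saline the genotypes do not overlap for Srf, Arsi and Sstr1, while for Adcyap1 the highest CTR mouse, at 9.94, lies among KO values, and after KA the order of the genotypes is turned.

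Arsi lies next to Camk2a, the gene of the CaMKIIα promoter that drives the Cre, in the order of the RefSeq annotation. On the other side of Camk2a the nearest gene is Slc6a7, a proline transporter of excitatory synapses. Its signal (ILMN_1248672) was 10.20, 10.18, 10.39, 10.24, 10.01 and 10.40 in CTR mice 1 to 6 and 10.42, 11.01, 10.38, 10.69, 10.40 and 10.66 in KO mice 1 to 6, so that only KO mouse 3 and KO mouse 5 read as low as the highest CTR mice. The difference was 0.36 (standard error 0.15, adjusted p = 1 in limma) after saline, and it was 0.43 (adjusted p = 0.11) after KA. The other 16 measured genes among the 10 nearest on each side differed by between −0.17 and 0.14, and none had an unadjusted p under 0.05. Camk2a itself differed by −0.04 (ILMN_2596479) and −0.07 (ILMN_2677393) on its bright probes. All 19 measured neighbours of Srf differed by between −0.15 and 0.11. Whether the position beside Camk2a plays a part in the values of Arsi and Slc6a7 was not tested.

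**Figure D3:**
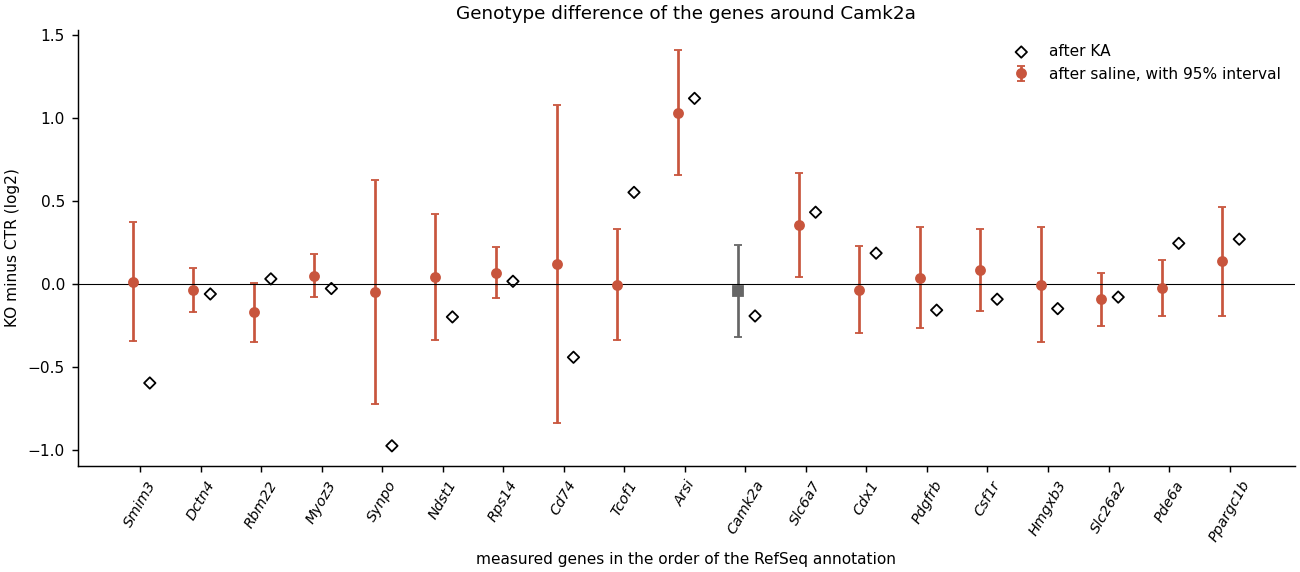
Genotype difference (KO minus CTR, log2) of 18 measured genes around Camk2a in the order of the annotation, with 95% confidence intervals after saline (filled circles) and the value after KA (open diamonds), and Camk2a itself as the grey square. Arsi at 1.03 and Slc6a7 at 0.36, the genes on either side of Camk2a, have saline intervals that stay above 0, and the other 16 lie between −0.17 and 0.14.

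Dsp, which encodes desmoplakin, a plaque protein of desmosomes and a marker of granule cells in the mouse dentate gyrus, had a lower mean in KO mice after saline. It read 10.97, 11.03, 10.81, 11.08, 11.18 and 10.56 in CTR mice 1 to 6 and 10.13, 10.10, 10.74, 10.36, 10.46 and 10.62 in KO mice 1 to 6. CTR mouse 6 lay among the KO values, and the difference of −0.53 (standard error 0.16) did not pass the test (adjusted p = 1 in limma). After KA it was 2.41 in the other direction (adjusted p = 8.7e-09), with a difference between the treatments of 2.94 (adjusted p = 1.8e-07 in limma). Its 2 dim probes were under background.

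Ccl21a, a chemokine that guides lymphocytes and dendritic cells, and its near-identical copies had lower means in KO mice that did not pass the limma test. Ccl21a (ILMN_1213286) read 10.94, 10.85, 11.22, 10.89, 11.12 and 10.87 in CTR mice 1 to 6, and 9.99, 10.81, 10.12, 10.65, 10.70 and 10.12 in KO mice 1 to 6, a difference of −0.58 (standard error 0.17). The pseudogene LOC100041516 (ILMN_1221526), whose RefSeq span holds Ccl21c, differed by −0.59. It was 1 of the 5 probes called by Tukey's test without adjustment over probes. Ccl21c (ILMN_2640848) differed by −0.60. In limma the lowest adjusted p of the 3 probes was 0.99. These transcripts share most of their sequence, so the values may come from 1 of them or from several.

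A run of genes close together on chromosome 17, the chromosome of Srf, differed widely between mice of the same group. Ndufb10, a subunit of respiratory complex I (ILMN_2691261), read 9.88, 9.83, 13.21, 9.67, 12.32 and 11.57 in CTR mice 1 to 6, and 13.08, 12.38, 13.31, 12.45, 12.21 and 12.41 in KO mice 1 to 6. Thus 3 CTR mice lay far below the rest, and CTR mice 3 and 5 read as KO mice did. Its second probe (ILMN_2900216) went the other way, with a difference of −0.56 against 1.56. Eme2, a partner of a DNA repair nuclease (ILMN_1224485), followed the first Ndufb10 probe: 7.79, 7.99, 10.40, 7.76, 9.47 and 9.15 in CTR mice 1 to 6, and 10.18, 9.68, 10.54, 9.50, 10.06 and 10.16 in KO mice 1 to 6. Their deviations from the group means had a correlation of 0.963 over the 12 saline arrays, given as a description.

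Bricd5 and the pseudogene Gm12091 marked a second set of mice. Gm12091 (ILMN_1214408, chromosome 11) read 14.70, 14.93, 10.31, 14.83, 13.98 and 14.09 in CTR mice 1 to 6, and 10.64, 13.96, 10.43, 14.09, 10.11 and 10.54 in KO mice 1 to 6. Its values fell into a high and a low set with nothing between, and 1 CTR mouse and 4 KO mice were in the low set. Bricd5 (ILMN_2764325, chromosome 17) was low in the same 5 mice, at 8.19 in CTR mouse 3 and at 8.38, 8.18, 8.34 and 8.26 in KO mice 1, 3, 5 and 6, against 9.46 to 10.12 in the others. The within-group correlation of the pair was 0.987 over 12 arrays. None of these genes passed the test (adjusted p = 1 in limma). Other genes of the same stretch differed in both directions, Tsr3 by 0.60 and 0.59 on 2 of its probes, Tedc2 by 0.50, and Nubp2 by −0.65, −0.42 and −0.06 on its 3 probes. Nubp2 was called on 1 probe when the replicate number was a block and the 12 saline arrays were fitted alone. The sources used here do not give a genotype at this locus for single mice, and its part in these values was not tested.

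The known SRF targets of the cytoskeleton had close mean levels in both genotypes at rest. Of 41 listed genes 39 were measured and 31 were above background in both groups, with a median difference of 0.02 over the measured genes against 0.002 over all genes. None was called, and 1 higher (Fhl1, 0.24) and 1 lower gene (Actb) had an unadjusted p under 0.05, against 1.09% and 1.04% of all genes. The confidence interval lay within 1.5-fold for 23 of the 31. Actb, which encodes the main actin of non-muscle cells, read 15.35, 15.60, 15.61, 15.36, 15.48 and 15.45 in CTR mice 1 to 6, and 15.28, 15.35, 15.20, 15.09, 15.31 and 15.23 in KO mice 1 to 6. The groups met at 15.35, and the difference was −0.23 (standard error 0.095) on this probe (ILMN_2698799). Its other 4 probes differed by −0.49, −0.14, 0.37 and 0.38, so the direction was not shared by all of them. Zyx (zyxin), Wdr1 (a factor of actin disassembly) and Tpm4 (a tropomyosin) differed by −0.08, −0.12 and 0.0005.

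Of SRF's own partners, 20 were listed and 17 measured. The MADS-box factor Mef2c (13.15 in CTR and 13.01 in KO mice) and the ternary complex factors Elk3 (10.80 and 10.64) and Elk4 (10.33 and 10.28) were above background in both groups. Mrtfa, Mrtfb and Elk1 were not, so nothing can be said of their levels. No member other than Srf was called or had an unadjusted p under 0.05, and the median difference was 0.02.

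Immediate-early genes, the first to be transcribed after synaptic activity, had a clear resting level in both genotypes. Egr1 read 13.53 in CTR and 13.55 in KO mice, Egr3 13.92 and 14.07, Jun 12.58 and 12.64, Dusp1 11.17 and 11.16, Fos 9.47 and 9.42. Of 38 measured members 26 were above background in both groups, and Npas4, Atf3, Nr4a1, Ier2, Btg2 and Maff were among those that were not. The median difference was −0.0002, with 19 positive and 19 negative values between −0.38 and 0.28. Arc, which traffics AMPA receptors and binds RNA, was the only member with an unadjusted p under 0.05 (10.73 ± 0.36 in CTR and 10.35 ± 0.22 in KO mice, SD). Its ranges, 10.29 to 11.34 and 9.97 to 10.59, overlapped. After KA 26 of the same 38 genes were called lower in KO mice, with a median of −1.29, where 6.6% of all genes were called.

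Among late-response plasticity genes, those induced after the immediate-early wave, 5 of 27 measured members had an unadjusted p under 0.05, 4 lower and 1 (Adcyap1) higher, against 1.04% and 1.09% of all genes, and none was called. The lower members were Inhba, a subunit of activin (−0.49), the neuronal pentraxins Nptx2 (−0.43) and Nptx1 (−0.41), which gather AMPA receptors, and Nrn1, the growth-promoting protein neuritin (−0.20). Nrn1 lay between 15.07 and 15.25 in CTR mice and between 14.85 and 15.12 in KO mice. Bdnf, a neurotrophin, read 12.63 in CTR and 12.36 in KO mice. The median over the list was 0.03, so most members did not share the direction of these 4. Without the 3 arrays that stood apart, 2 members were lower and 1 higher at this p (0.714% and 0.897% of all genes), and with the 12 saline arrays alone 6 and 1 (2.05% and 2.47%).

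Pdyn was the one of 24 neuropeptide and granin genes whose groups did not overlap with KO mice lower, where 45 of all 20295 genes (0.222%) did not overlap in either direction. It encodes prodynorphin, the opioid precursor of granule cells and their mossy fibres, and read 12.96, 13.33, 13.04, 13.31, 13.26 and 13.14 in CTR mice 1 to 6, and 12.79, 12.66, 12.79, 12.75, 12.63 and 12.90 in KO mice 1 to 6 (ILMN_2783873). The difference was −0.42 (standard error 0.15, adjusted p = 1 in limma), and −0.40 on its second probe. After KA it was −1.28 (adjusted p = 1.5e-05). Grp, a bombesin-like peptide, had a difference of 0.37. Granule cell and interneuron peptides such as Penk (9.24 in CTR and 9.20 in KO mice), Npy (12.88 and 12.94), Cck (13.93 and 14.03) and Sst (14.29 and 14.48) stayed within 0.2 of each other. The median over the list was 0.09, and 20 of 24 members had a positive difference.

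Receptors for neuropeptides held Sstr1 and 3 further members with a positive difference and an unadjusted p under 0.05 among 24 measured genes: Trhr, the receptor of thyrotropin-releasing hormone (0.61), Ntsr1, a neurotensin receptor (0.41), and Sstr2, another somatostatin receptor (0.26). Npy1r, a receptor of neuropeptide Y, had a negative one (−0.32). Over all genes the shares were 1.09% higher and 1.04% lower. Trhr read 9.78, 9.79, 9.54, 9.91, 9.53 and 10.50 in CTR mice 1 to 6, and 10.44, 10.11, 10.36, 10.37, 10.67 and 10.77 in KO mice 1 to 6, again with CTR mouse 6 among the KO values. Trhr also stood in the list of CA3 pyramidal markers, whose 10 members had a median of −0.04. Sstr3, Sstr4 and Sstr5 were under background in both groups. Without those 3 arrays, 2 higher and 0 lower members had an unadjusted p under 0.05 (0.897% and 0.714% of all genes), and with the 12 saline arrays alone 5 and 3 (2.47% and 2.05%).

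Genes of excitability differed little. Of 56 voltage-gated channel genes 49 were measured, none had an unadjusted p under 0.05, the median was −0.01 and the interval lay within 1.5-fold for 38 of the 41 above background. The range ran from −0.27 (Cacna1h, a T-type calcium channel) to 0.22 (Scn4b, a sodium channel subunit). None of 20 measured glutamate receptor genes had an unadjusted p under 0.05 (median −0.06), and of 10 GABA receptor subunits only Gabra3 did (0.37). Among 13 measured sulfatases, Arsi alone did, and the median was −0.05.

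**Figure D4:**
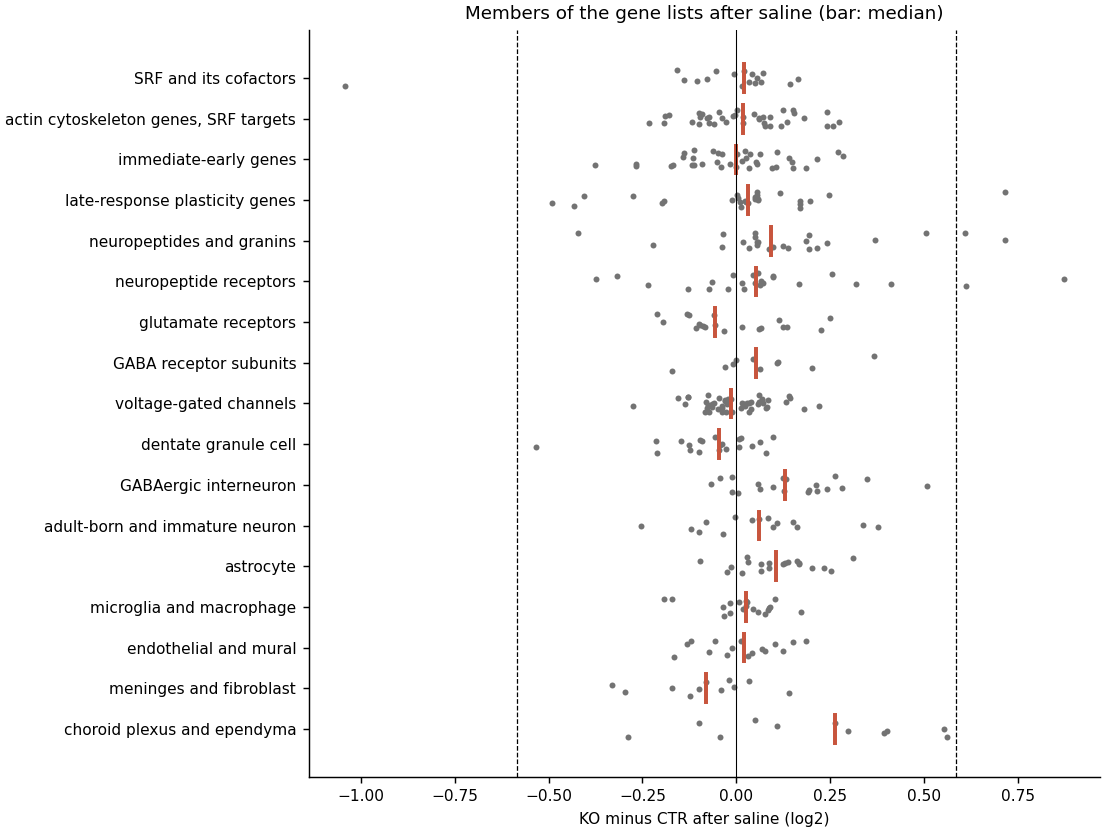
Genotype difference (KO minus CTR, log2) after saline of every measured member of 17 gene lists, 1 point each, with the list median as a red bar and dashed lines at 1.5-fold. The list medians lie between −0.08 and 0.26, and the members beyond the dashed lines are Srf, Adcyap1 (in both lists that hold it), Trh, Trhr and Sstr1.

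The resting profile held the markers of granule cells and those of cells around them. Markers of granule cells were high in all 12 mice: Prox1, the homeobox factor that keeps granule cell identity, read 12.19 in CTR and 11.98 in KO mice, C1ql2, a secreted mossy fibre synapse protein, 15.45 and 15.33, and Dock10 12.31 and 12.32. Calb1 and Tdo2, which mature granule cells also make, were not above background on these probes. The mean over 15 granule cell markers above background lay between 10.88 and 11.11 in CTR mice and between 10.77 and 11.04 in KO mice, and the list median was −0.05. Of 21 measured granule cell markers 15 (71.4%) were above background in both groups, and so were 6 of 9 CA1 (66.7%) and 9 of 10 CA3 pyramidal markers. The mean over the CA1 markers ran from 10.29 to 11.36 in CTR mice and from 10.34 to 11.35 in KO mice, and that over the CA3 markers from 10.31 to 10.61 and from 10.24 to 10.70.

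Markers of cells that keep Srf in KO mice were present as well. GABAergic interneurons were marked by Gad1 (14.56 in CTR and 14.55 in KO mice) and Slc32a1, the vesicular GABA transporter (13.43 and 13.70), and astrocytes by Gfap (13.31 and 13.56) and Aldoc (15.38 and 15.47). Of 20 measured interneuron markers 16 had a positive difference, with a median of 0.13, and of 20 astrocyte markers 17, with a median of 0.10. Over all genes 10332 of 20295 had a positive difference, and the median was 0.002. Slc32a1 and Gad2 among the interneuron markers had an unadjusted p under 0.05, both higher in KO mice, and no astrocyte marker did. That p was reached by 1.09% of all genes in the higher direction. With the 12 saline arrays alone 4 interneuron and 3 astrocyte markers reached it, all higher in KO mice, against 2.47% of all genes. Without the 3 arrays that stood apart 1 and 2 did, against 0.897%. The mean over the interneuron markers above background ran from 11.22 to 11.52 in CTR mice and from 11.47 to 11.74 in KO mice, and that over the astrocyte markers from 12.58 to 12.77 and from 12.69 to 12.88. Both pairs of ranges overlapped, and the part of cell composition in the other results was not tested. Microglial markers (median 0.03), endothelial and mural markers (0.02) and mossy cell markers (−0.02) lay near 0.

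Sox4, a factor of newborn and immature neurons, differed by 0.34 after saline and by −0.71 after KA, and Igfbpl1, another gene of that stage, by 0.38 after saline. Tubb3, a tubulin of neurons, was the member of this list with an unadjusted p under 0.05 in the lower direction (−0.25). The 15 markers of adult-born and immature neurons, 9 with a positive and 6 with a negative difference, had a median of 0.06. Cd44, a hyaluronan receptor of reactive astrocytes, did not overlap between the groups, as 0.222% of all genes did not, and differed by 0.47, while the 26 genes of reactive astrocytes and inflammation had a median of 0.04, with 2 members at an unadjusted p under 0.05 and 0 without the 3 arrays, and the list of p53 targets and DNA damage a median of 0.01 with 0 of 20 at an unadjusted p under 0.05. The listed ribosomal protein and respiratory chain genes lay within 1.5-fold for all 18 and all 21 members above background. The respiratory chain list does not hold Ndufb10, which differed by 1.56 (95% interval from 0.34 to 2.78) on its brighter probe and in the other direction on its second.

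The genes that differed most between mice of 1 group included markers of smooth muscle, meninges and choroid plexus, tissues around the granule cells. Over the 10677 genes the median SD within groups was 0.16 on the log2 scale, and it passed 0.5 in 220 genes and 1 in 16. Acta2, the actin of smooth muscle, read 14.04, 12.19, 12.90, 14.59, 14.73 and 14.59 in CTR mice 1 to 6, and 14.82, 15.07, 14.81, 12.52, 14.33 and 12.21 in KO mice 1 to 6. CTR mice 2 and 3 and KO mice 4 and 6 were low in both Acta2 and Mgp, a matrix protein of vessel walls and meninges. Their within-group correlation over 12 arrays was 0.960. The mean of 10 meningeal markers was 10.71, 10.88 and 10.30 in CTR mouse 2 and KO mice 4 and 6, and 11.30 to 12.13 in the others. These 3 mice also had the lowest mean over the 31 actin cytoskeleton genes above background, at 11.33, 11.35 and 11.20 against 11.44 to 11.88 in the others. The part of vessel and meningeal tissue in the values of the actin list was not tested.

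Choroid plexus genes were highest in KO mouse 5. It read 13.36 for Ecrg4 and 16.05 for Ttr, transthyretin, which was next highest in CTR mouse 1 at 15.79. The mean of 5 choroid plexus and ependymal markers was 12.03 in KO mouse 5, against 9.73 to 10.88 in the other 11 mice. The list median of 0.26 became −0.10 without the 3 arrays, of which KO mouse 5 is one. Slc17a6, a vesicular glutamate transporter of thalamus and other subcortical regions, ran from 9.56 to 12.15 in CTR mice and from 9.76 to 12.85 in KO mice, and followed Tnnt1 with a within-group correlation of 0.921 over 12 arrays. None of these genes passed the test between the genotypes.

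**Figure D5:**
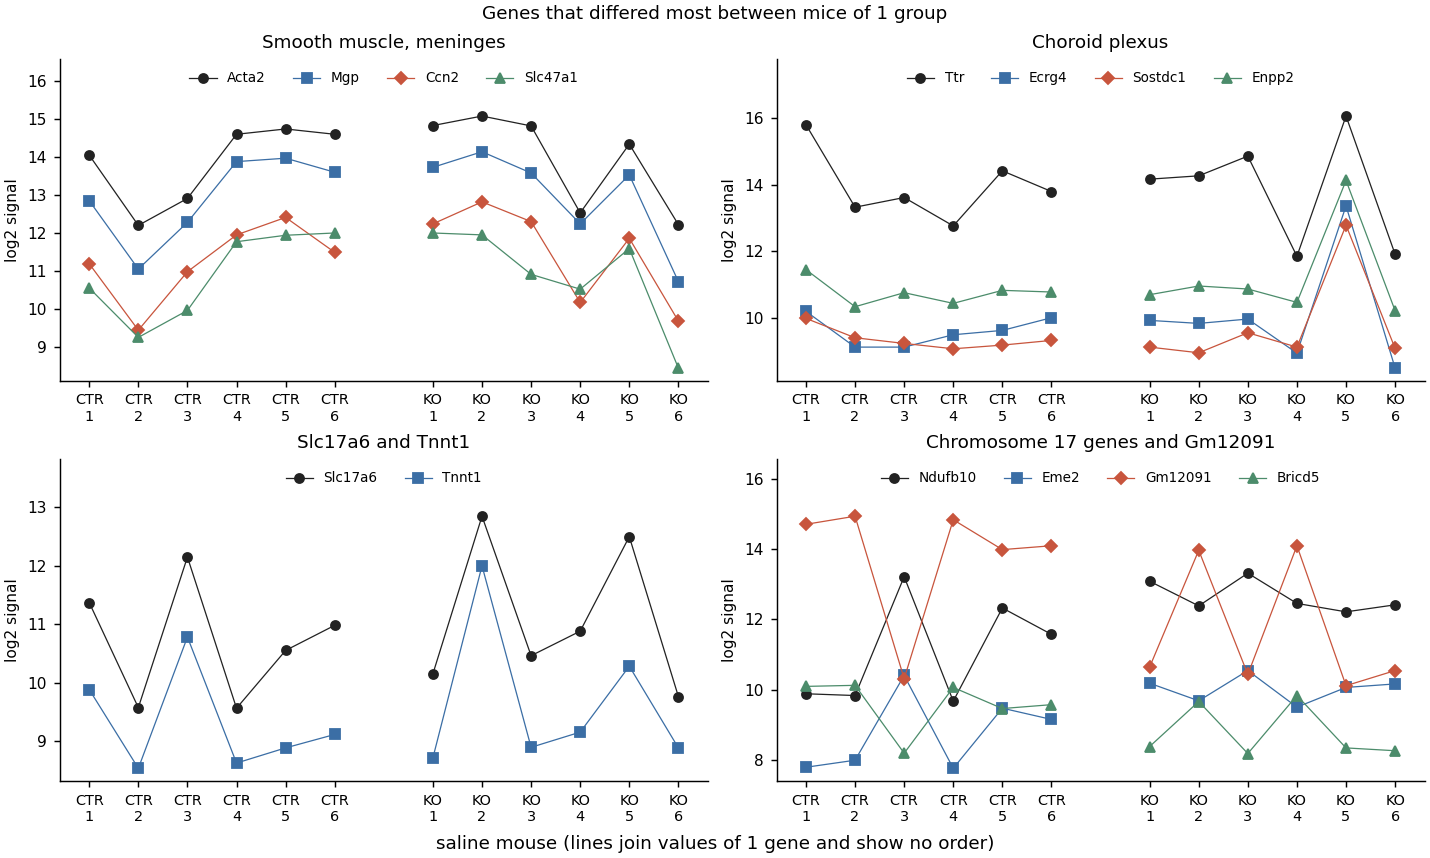
Log2 signal in single saline mice, 6 CTR and 6 KO, of genes with a large spread within groups, in 4 panels with 1 line for each gene. Acta2, Mgp and Ccn2 are lowest in CTR mouse 2 and KO mice 4 and 6, and Acta2 and Mgp are also low in CTR mouse 3. Slc47a1 does not follow in KO mouse 4, at 10.51 against 9.95 in CTR mouse 3. The choroid plexus genes peak in KO mouse 5, with Ttr at 16.05 against 15.79 in CTR mouse 1. Gm12091 and Bricd5 are low in CTR mouse 3 and KO mice 1, 3, 5 and 6.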

How the data were processed

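RNA from the dentate gyrus was hybridized to Illumina MouseWG-6 BeadChips, 1 for each mouse. The authors subtracted the background in the BeadArray package, quantile-normalized the arrays and took log2. The log2 values deposited in the series matrix were used as they are, with no further scaling and no genome build given in the sources used here. The table of intensities before normalization was not used. The depth of an array is not a count, and the number of arrays limits the precision.

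Groups came from the labels of genotype and drug. Group means over all 22 arrays were fitted with limma 3.58.1 in R 4.3.3 (18 residual degrees of freedom), and p-values were adjusted with the Benjamini-Hochberg method over 46237 probes. A call needed an adjusted p under 0.05 and more than 1.5-fold. Tukey's test after a 2-way fit, unadjusted over probes, was an alternative that gave 5 probes. The scripts were tested on simulated data. Where nothing states that the mice came from separate litters, p-values measure the spread between these samples.

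The platform annotation gives 1 symbol for 35784 probes and none for 10453; 3258 were updated through RefSeq, which leaves 20295 genes, each given by its brightest probe on the saline arrays. Named genes were Srf, Sstr1, Arsi and Adcyap1, any called gene, the 8 largest differences on each side above background, and the most variable genes. The genes and lists were chosen with earlier results of these data known, and 55 list members were not measured. The similarity of Ccl21 copies, the chromosome 17 run and the differences shared with KA were noticed after seeing the data. Other settings were the saline arrays alone, renormalization, equal medians, a filter on background, array weights, an intensity trend, the replicate number as a block, and leaving out arrays.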

Additional observations from a re-analysis of the deposited data

Results flagged for a closer look

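Of 52 groups of 6 saline arrays examined, 2 for each of 26 named probes, 6 had 1 mouse that stood further from the others than Dixon's 95% critical value allows, which chance gives in about 1 in 20 groups. The count cannot be read against that rate, because many of these probes were named for a large difference or a large spread. Adcyap1 was 10.67 in KO mouse 6 against 10.07 in the next, and Arsi was 8.44 in CTR mouse 6 against 8.86. Both mice are among the 3 whose arrays stood apart from the other saline arrays. Vat1l was 12.56 in KO mouse 5 against 10.98, and Ecrg4, a gene of the choroid plexus, was 13.36 in the same mouse against 9.97. In CTR mouse 3 Gm12091 was 10.31 against 13.98, and Bricd5 was 8.19 against 9.46. Without CTR mouse 3, the difference of Gm12091 went from −2.18 to −2.88 and that of Bricd5 from −0.81 to −1.09, and both kept an adjusted p of 1 in limma. Without KO mouse 5, that of Vat1l went from 0.69 to 0.35.

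The genotype difference itself differed between the treatments in 2 of the 26 named probes. Genes outside this set, among them Arc, Bcl6, Gch1 and Pdyn, passed the same test. The difference after KA minus that after saline was −2.14 for Adcyap1 (adjusted p = 5.9e-06 in limma) and 2.94 for Dsp (adjusted p = 1.8e-07). In KO mice Adcyap1 was on the higher side after saline and on the lower side after KA, and Dsp the reverse.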

How the results depend on the processing

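The Srf difference lay between −1.05 and −1.03 under the other settings and was called in all of them, also without single arrays (adjusted p from 2.8e-06 to 9.9e-05 in limma). The count of 1 called probe was 3 with the saline arrays alone, with quantile renormalization and with the intensity trend. It was 2 with the background filter, 4 with array weights, 5 by Tukey's test unadjusted over probes, and 1 to 3 without single arrays. For Sstr1 the difference came to 0.87 with the saline arrays alone, 0.87 (renormalized), 0.86 (weights), 0.87 (trend) and 0.87 (Tukey), each past the threshold. It was 0.83 to 0.92 without single arrays. Under the filter it was also 0.87 and past the threshold. Sstr1 entered the filtered set only through KO mice after saline, the group where it is high, so its call there is no further support. Arsi gave 1.03 (saline arrays), 1.05 (renormalized), 1.03 (weights), 1.03 (trend) and 1.03 (Tukey), past the threshold, and 0.95 to 1.10 without single arrays. Adcyap1 passed with 0.71 (weights) and 0.71 (Tukey), and ran from 0.60 to 0.83 without single arrays. The interaction of Sstr1 passed with −0.71 under the trend, and under the filter with the same limit. It lay between −0.83 and −0.57 without single arrays. That of Adcyap1 lay between −2.25 and −2.02 and was always called. Only Srf was called without the 3 arrays that stood apart, with equal medians and with the replicate block over all arrays. The same held when Tukey's test was adjusted over probes with the Benjamini-Hochberg method. Without single arrays the adjusted p in limma ran from 0.0074 to 0.27 for Sstr1 and from 0.034 to 0.65 for Arsi. For Adcyap1 it was 0.11 or more. No called difference changed its sign. The differences of Ttr, Slc47a1, Ecrg4, Mgp, Ifi27l2a, Acta2 and Ccn2, none of them called, took the other sign in 25 cases in all, and some list medians crossed 0, such as that of meninges (−0.08, and 0.16 without the 3 arrays) and of choroid plexus (0.26 and −0.10). Equal-median scaling moved single arrays by up to 0.13. Mice of the 2 genotypes share only replicate numbers: the correlations of same-numbered mice, 0.19, −0.27, 0.13, 0.01, −0.09 and 0.40, do not pair them. With the number as a block 1 probe was called, and 6 with the block and the saline arrays alone, where Sstr1 (0.87), Arsi (1.03), Adcyap1 (0.71), Nubp2 and the unnamed probe ILMN_2529392 passed beside Srf. The 6 arrays of a group and signals near background limit what smaller differences can be seen. Of the values of the main results under all alternatives, 182 kept their side of the threshold and 40 gained it. Of those of other named genes and lists, 1892 were kept, 25 moved and 1 gained it.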

Other observations

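Genes with small differences after saline were compared with their differences after KA, on arrays of other mice, a choice made after seeing the data. Of 11681 genes above background in at least 1 group, 212 had an unadjusted p under 0.05 after saline. Of these, 45 also had one after KA with the same direction, 26 lower and 19 higher in KO mice, and 30 had one with the opposite direction. Together these were 75 of 212 (35.4%), a share close to that of all genes tested, of which 4341 (37.2%) had such a p after KA. The arrays of the 2 treatments are not shared, but they were normalized together and share the estimate of the spread.

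Shmt1, which makes one-carbon units from serine, was one of the 45 genes. It read 9.0, 8.97, 8.97, 9.04, 8.78 and 8.76 in CTR mice 1 to 6 and 8.57, 8.53, 8.52, 8.31, 8.53 and 8.52 in KO mice 1 to 6, with no overlap. The difference was −0.42 (standard error 0.087, adjusted p = 0.54 in limma), and it was −0.68 (adjusted p = 3e-05) after KA. Its dimmer probe differed by −0.01. Bcl6, a repressor of transcription, differed by −0.31 and −1.50, and Gch1, the first enzyme of tetrahydrobiopterin synthesis, by −0.42 and −1.41. Ddr1, a collagen receptor, differed by 0.32 and 0.72.

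Chromosome 12, which carries Sstr1, held 6 of the 45 genes (13.33%). It held 5.19% of the genes with an unadjusted p under 0.05 after saline and 3.44% of the genes tested. The 6 genes included Trim9, a ubiquitin ligase of neurons, Srp54a, a subunit of the signal recognition particle, and Sec23a, a coat protein of transport vesicles. These and the further members Map4k5 and Eml5 were lower in KO mice. Bcap29 was higher, by 0.19 after saline and by 0.39 after KA. Trim9 differed by −0.53 and −0.46 after saline on its 2 brightest probes. KO mouse 3 lay among the CTR values on both, and KO mouse 2 did so as well on the probe with −0.46. On the next probe Trim9 differed by −0.05. Its 2 other probes were under background. Srp54a differed by −0.36 after saline and by −0.50 after KA. These are counts chosen after the values were seen, and nothing about the chromosome was tested.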
